A study of Mus musculus with 4 samples.

Results

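The direct comparison of myostatin knockout (Mst KO) with mdx muscle-derived stem cells (MDSCs), leaving the wild type out of the ratio, used 2 of the 4 arrays of the series, with 1 array for each of the cell types. All 268 genes on the array were compared, with the spots of a gene averaged and the control spots left out. The Mst KO cells came from male mice without myostatin (Mst-/-) on a C57BL/6J background, and the mdx cells came from male mice with the genotype 10ScSn-Dmdmdx, for which the sample records also name C57BL/6J. The remaining arrays were of wild-type (WT) C57BL/6J and Oct_4 transgenic MDSCs. All cells were prepared from hind limb muscle by preplating, and were grown in medium with 20% fetal bovine serum. The WT and Mst KO mice were 12 to 16 weeks old, and the RNA for each array was pooled from several flasks, which were therefore not replicates. The age of the mdx donors of these cells is not given in the sources used here. Genotype, strain and culture cannot be told apart with 1 array on each side, and no test was run. The myostatin and dystrophin genes are not analysed here, so the genotype of the cultures was not checked.

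MDSCs are slowly adhering cells of skeletal muscle that can form muscle and, in culture, other mesenchymal lineages. Myostatin is a secreted factor of the transforming growth factor (TGF) beta family that restrains muscle mass. Dystrophin links the cytoskeleton of the myofiber to the extracellular matrix, and its loss in the mdx mouse leads to repeated rounds of myofiber death and repair with fibrosis. Both genotypes thus bear on muscle growth and repair, one through a signal and the other through a structural protein.

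Most transcripts on this array had similar levels in the Mst KO and mdx cultures. Of the 268 genes, 140 were called present on at least 1 of the 2 arrays, and 131 of these (93.6%, exact 95% binomial interval over genes 88.1 to 97.0) differed by less than 2-fold in normalized intensity. The interval takes genes as independent and covers no spread between cultures. At a closer limit, 108 of the 140 (77.1%) were within 1.5-fold. Only 4 genes (2.86%) were at least 2-fold higher in Mst KO MDSCs, among them Spp1, Cxcl12 and Bmp4, and 5 (3.57%) were at least 2-fold lower, namely Gja1, Fgf17, Hspa9, Mme and Fgf16. The normalized intensity is the spot minus the lowest spot of its array, divided by the mean of the middle 144 spots, and this factor was 363 for Mst KO and 309 for mdx. The log2 ratio, Mst KO over mdx, had a median of 0.09 over the 140 genes with quartiles of -0.23 and 0.36, and 81 genes lay above 0 and 59 below.

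**Figure D1:**
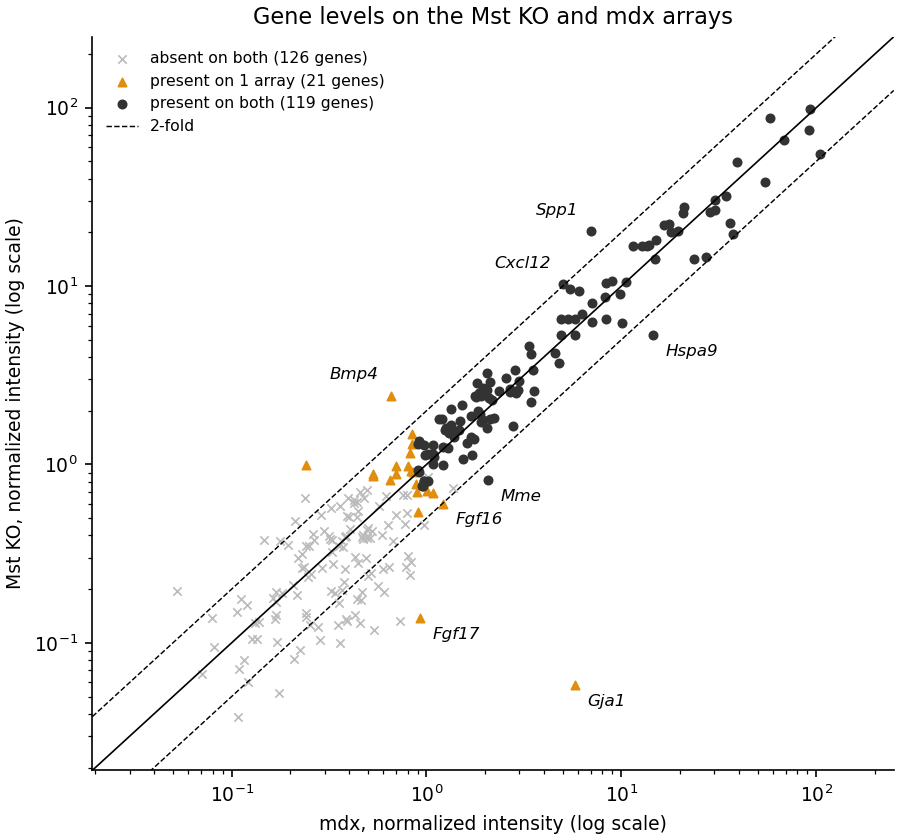
Normalized intensity of 266 of the 268 genes on the mdx array (x axis, log scale) and the Mst KO array (y axis, log scale); Mfng and Zfp42, which are at 0 on 1 of the arrays, are not drawn. Each point is 1 gene, the solid line is equality and the dashed lines are 2-fold. Of the 119 genes present on both arrays, all but Spp1, Cxcl12, Hspa9 and Mme lie between the dashed lines, and the 8 labelled genes are among those counted past 2-fold.

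The authors' software called 133 genes (49.6%) present in Mst KO and 126 (47.0%) in mdx MDSCs. The raw intensity ran from 189 to 61071 and from 178 to 58174 in that order, and present genes reached down to normalized values of 0.753 and 0.898. Present calls are no sharp limit, because Acan was called absent on the Mst KO array at 0.847 and Cdh12 on the mdx array at 1.37. Where only 1 of the arrays called a gene present, the absent value was replaced by the lowest present one of its array, unless already above it, to give a fold that is a lower limit on the deposited scale. With this rule 3 genes remained higher in Mst KO (Bmp4, Cxcl12 and Spp1) and 3 lower (Gja1, Hspa9 and Mme). The only measured error is the SD between the 3 spots of Gapdh, Ppia and B2m on an array, which averaged 0.05 on the log2 scale and gives a log2 ratio a spread of 0.07. It does not cover the difference between cultures, and is not known for dim genes. The labelled cell type was checked against its markers. All 7 markers of MDSCs and myogenic cells were present on both arrays, with summed normalized intensities of 32.9 in Mst KO and 25.3 in mdx, and so were all 3 mesenchymal markers, with sums of 140 and 211. The first pair of sums differed mostly by Pou5f1 (16.7 and 11.5), and the second mostly by Col1a1 (55.0 and 105). Myod1 (2.65 and 2.68) and Cdh11 (65.6 and 68.7) were nearly equal, so the sums do not measure the share of a cell type. Of 2 endothelial markers on the array (Cdh5 and Kdr) and 3 of liver and epithelium none was present, of 6 hematopoietic markers only Cd8a, and of 4 neural markers only Neurog2, and that on the Mst KO array alone. Outside these markers, the T cell gene Cd3e was present on both arrays (1.87 and 1.70). The wider list of 9 neural genes had 5 present in Mst KO and 4 in mdx, with Sox3 bright (49.9 and 39.4).

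The gap junction gene Gja1 differed most of the 140 genes. Gja1 encodes connexin 43, a channel protein that couples neighboring muscle precursors. Its normalized intensity was 5.77 in mdx and 0.0581 in Mst KO MDSCs, where it was called absent, and 16.1 in WT and 9.01 in Oct_4 transgenic MDSCs. Of the 4 arrays, only that of Mst KO called Gja1 absent. The raw spot on the Mst KO array was 210 with a local background of 209, whereas on the mdx array the raw spot was 1964. The log2 ratio of -6.64 rests on a value near the lowest spot, and with the absent value raised mdx was 7.66-fold higher. Gja1 had no repeat spot on these arrays, and whether its spot on the Mst KO array failed was not tested. In a bulk sample, fewer cells that express a gene and less RNA in each cell cannot be told apart.

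Spp1 encodes osteopontin, a secreted phosphoprotein of bone matrix that is also made by muscle precursors and inflammatory cells. Its normalized intensity was 20.3 in Mst KO and 6.98 in mdx MDSCs, a 2.90-fold difference (log2 ratio 1.54). On the remaining arrays it was 70.7 in WT and 12.2 in Oct_4 transgenic cells, so that both Mst KO and mdx lay below WT and mdx was the lowest of the 4.

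Bmp4, a secreted bone morphogenetic protein of the TGF beta family, was present at 2.43 in Mst KO MDSCs and called absent at 0.654 in mdx. Its raw spots were 1073 over a local background of 350 and 380 over 251. With the absent value raised, Mst KO was 2.71-fold higher. The Mst KO value was above those of WT (0.843, present) and Oct_4 transgenic cells (0.176, absent).

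Cxcl12 encodes the chemokine SDF-1, which attracts hematopoietic and progenitor cells that carry the receptor Cxcr4. It was at 10.2 in Mst KO and 5.01 in mdx, a 2.04-fold difference, with 1.12 in WT and 6.38 in Oct_4 transgenic MDSCs. The WT array was the low array for this gene, and Cxcr4 was absent on both arrays compared here, at 0.375 and 0.329. The log2 ratio of 1.03 exceeds the 2-fold line by less than the spread of 0.07 from spots.

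Of the genes lower in Mst KO that were present on both arrays, Hspa9 encodes mortalin, a chaperone of the mitochondrial matrix. It was at 5.33 in Mst KO and 14.5 in mdx (2.72-fold lower, log2 ratio -1.44), with 8.45 in WT and 18.4 in Oct_4 transgenic cells. Mme encodes neprilysin (CD10), a cell-surface peptidase found on lymphoid precursors and on stromal cells. It was at 0.818 in Mst KO and 2.08 in mdx (2.54-fold lower, log2 ratio -1.35), and was called absent in WT at 0.148 and in Oct_4 transgenic cells at 0.118. Mme was therefore the only gene of the 8 that was present in both cell types compared and in neither of the others. Its present call in Mst KO was borderline, near the lowest present value of that array (0.753) and below Acan, called absent there at 0.847.

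Both growth factor genes were dim. Fgf17, a secreted growth factor, was at 0.922 in mdx and absent at 0.138 in Mst KO, and the bound was only 1.22-fold. Fgf16, of the same family, was at 1.22 in mdx and absent at 0.603 in Mst KO, with a bound of 1.62-fold. For both genes the deposited values differed by at least 2-fold but the bounds did not.

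**Figure D2:**
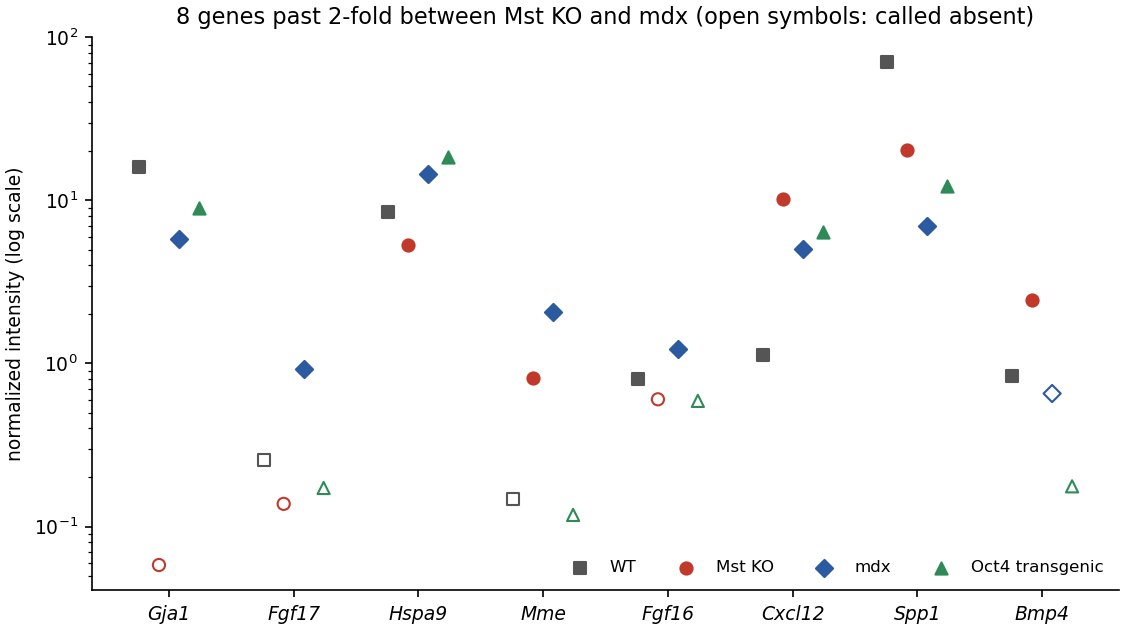
Normalized intensity (y axis, log scale) of 8 genes past 2-fold on the WT, Mst KO, mdx and Oct_4 transgenic arrays, 1 point for each array, with open symbols for genes called absent. Gja1 is open on the Mst KO array only, and Mme is filled on the Mst KO and mdx arrays only.

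The E box, the DNA motif bound by myogenic and other basic helix-loop-helix factors, is a usual first question for genes of muscle precursors. Upstream sequence is therefore shown for Gja1, Spp1 and Bmp4. These 3 genes stayed past 2-fold with all of the scalings and backgrounds tried and also with absent values raised. The 250 bases before the RefSeq start site are given for each. They are read on the strand of the gene (GRCm38.p6, chr10:56377050-56377299 on the plus strand for Gja1, chr5:104434861-104435110 on the plus strand for the first of 2 listed start sites of Spp1, and chr14:46390670-46390919 on the minus strand for Bmp4). Capitals mark the E box letters CANNTG, which read the same on both strands.
Gja1: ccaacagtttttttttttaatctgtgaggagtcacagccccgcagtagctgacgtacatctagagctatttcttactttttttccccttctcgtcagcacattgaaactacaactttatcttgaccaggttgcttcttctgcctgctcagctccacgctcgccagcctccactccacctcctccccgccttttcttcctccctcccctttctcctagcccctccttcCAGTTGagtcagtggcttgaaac
Spp1: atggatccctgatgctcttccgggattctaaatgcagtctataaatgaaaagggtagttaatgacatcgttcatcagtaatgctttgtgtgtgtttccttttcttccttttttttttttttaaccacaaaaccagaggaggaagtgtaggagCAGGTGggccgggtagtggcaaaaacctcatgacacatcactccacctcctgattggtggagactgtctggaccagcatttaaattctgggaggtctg
Bmp4: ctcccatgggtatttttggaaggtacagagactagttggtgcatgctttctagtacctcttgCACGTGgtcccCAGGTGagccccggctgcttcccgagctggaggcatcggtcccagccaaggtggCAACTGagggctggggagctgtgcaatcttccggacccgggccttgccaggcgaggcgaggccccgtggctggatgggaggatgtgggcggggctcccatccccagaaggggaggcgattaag
The Gja1 window held 1 match, that of Spp1 held 1 (2 at its second start site) and that of Bmp4 held 3, and the windows of Cxcl12 and Mme held 0. The letters were found in 66.2% of 32817 RefSeq windows of this length. TATAAA, searched on both strands, was in the window of the first Spp1 start site, not of the second, and in 12.4% of all windows. These are matches of letters, and binding was not measured.

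Among genes of skeletal myogenesis, 8 of 10 on the array were counted, 1 was higher in Mst KO by at least 2-fold (Spp1) and 0 lower. Of all 140 genes, 4 were higher and 5 lower. Myod1, the transcription factor that commits cells to muscle, was at 2.65 in Mst KO and 2.68 in mdx, and Myf5, its close relative, at 2.67 and 1.94. The intermediate filament gene Des was at 6.52 and 5.77, the cardiac actin gene Actc1 at 6.52 and 4.87, and Cdh15, the cadherin of myoblasts and satellite cells, at 1.66 and 1.34. Igf1, a growth factor that promotes muscle growth, was at 5.33 and 4.91. With Spp1 and Ncam1 included, 7 of the 8 counted genes had a log2 ratio above 0, against 81 of all 140 genes. Their median log2 ratio was 0.24, or 0.16 above that of all genes. Myf6 and Mef2a were absent on both arrays.

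Among genes of stromal and matrix cells, Pdgfra, the receptor that marks mesenchymal progenitors of muscle, and Col1a1, a chain of type I collagen, had the lower value in Mst KO. Pdgfra was at 19.7 in Mst KO and 37.5 in mdx, and Col1a1 at 55.0 and 105. Their log2 ratios were both -0.93, just inside 2-fold. Both were -0.54 with scaling to 5 housekeeping genes, and past 2-fold with a local background (-1.14 for Pdgfra and -1.13 for Col1a1). The third mesenchymal marker, Cdh11, was nearly equal at 65.6 and 68.7. The share of such cells in each culture was not measured, and its part in the other differences was not tested. Ctnna1, which links cadherins to actin, was at 14.2 and 23.5, and Ctnnb1, its partner and the effector of Wnt signaling, at 26.1 and 28.6. In contrast, Cd44, the hyaluronan and osteopontin receptor, was at 1.81 in Mst KO and 1.15 in mdx. Of 8 cartilage, bone and matrix genes, 4 were counted with only Spp1 past 2-fold, against 4 higher of all 140 genes. Of the 14 cadherins, 4 were counted and 0 were past 2-fold.

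Of 15 connexins on the array 8 were counted, with Gja1 at least 2-fold lower in Mst KO, against 5 lower of all 140 genes. Gja4, which encodes connexin 37 of vessels, was at 87.4 in Mst KO and 57.7 in mdx (log2 ratio 0.60), and Gjb2, connexin 26, at 2.42 and 1.78. Gja3 was near equality at 1.14 and 1.08. Gja10 had the next lowest log2 ratio after Gja1 in this group, at -0.10.

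Among genes of bone morphogenetic protein and TGF beta signaling, 6 of 20 were counted and only Bmp4 was past 2-fold, against 4 higher of all 140 genes. This list holds receptors and other pathway genes besides members of the TGF beta family, to which myostatin belongs. The bone morphogenetic protein receptors Bmpr2 (20.3 and 19.5) and Bmpr1a (10.4 and 8.31) had similar values in Mst KO and mdx. Bmp1, a protease that processes procollagen and can activate myostatin, was present only on the mdx array (0.705 and 0.898), and Bmp2 only on the Mst KO array (0.780 and 0.883), with the mdx value the higher of the pair. Smad4, the shared mediator of the pathway, was absent on both arrays, at 0.301 and 0.428.

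Of 26 fibroblast growth factor (FGF) genes, 10 were counted, 0 were higher and 2 lower (Fgf16 and Fgf17), against 4 higher and 5 lower of all 140 genes, and neither was past 2-fold with its bound. Fgf7, made by mesenchymal cells and acting on epithelium, was at 8.74 and 8.28, Fgf6, a factor of developing muscle, at 0.990 and 1.22, and the receptor gene Fgfr4 at 1.08 and 1.54. The median log2 ratio of the list was 0.03. Among other growth factors, Pdgfa was at 6.25 and 7.05 and Pdgfb at 16.7 and 13.5, with 0 of 5 counted genes past 2-fold.

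Genes of the Notch pathway, which keeps muscle stem cells undifferentiated, were within 2-fold as deposited where they were counted, whereas Adam17, Notch3 and Numb were past it with scaling to 5 housekeeping genes and Notch1 with a local background (log2 ratio 1.23). Of 16 receptors, ligands and proteases 10 were counted, with a median log2 ratio of 0.03. Notch1 was at 1.16 in Mst KO and absent at 0.824 in mdx, Notch3 at 1.30 and 0.840 (absent), and the receptor sheddase gene Adam17 at 9.43 and 6.07. The ligand gene Jag1 was at 5.31 and 5.79. Of 16 nuclear effectors and regulators 12 were counted, with a median of 0.30, or 0.22 above that of all genes, and 8 of 12 lay above 0, against 81 of all 140 genes. They included Rbpj, the DNA-binding partner of Notch (21.9 and 16.6), its target Hes1 (1.31 and 0.902), and the Notch inhibitor Numb (1.48 and 0.845, absent in mdx). Hdac2 (6.57 and 8.36) and Snw1 (0.708, absent, and 1.01) lay on the mdx side. Of 12 Wnt genes, 8 were counted and 0 were past 2-fold. Csnk1a1, a kinase that marks beta-catenin for degradation, was at 6.24 and 10.1 and the Wnt target Ccnd1 at 1.36 and 0.921.

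The counted cell cycle genes were also within 2-fold as deposited. Cdk4 was at 38.2 in Mst KO and 54.7 in mdx and Cdk2 at 1.63 and 2.78, whereas among the D cyclins that activate Cdk4, Ccnd2 was at 1.80 and 1.20 and Ccnd3 at 10.7 and 8.96. Ccna2, a cyclin of the phase of DNA synthesis, was present only in Mst KO (0.857 and 0.532), and its log2 ratio turned to -0.07 with the absent value raised. Cdkn2b, the inhibitor of Cdk4 that TGF beta induces, was at 9.64 and 5.44 (log2 ratio 0.83, or 1.22 with scaling to 5 housekeeping genes), while Cdkn1a was at 1.79 and 2.11 and Trp53 at 2.51 and 2.90. In each of these groups, 7 of 9 cyclins and kinases and 5 of 5 inhibitors and tumor suppressors, 0 were past 2-fold.

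Of 17 pluripotency genes, 8 were counted and 0 were past 2-fold. Pou5f1, which encodes Oct 4, was at 16.7 in Mst KO and 11.5 in mdx (log2 ratio 0.54), and Myc at 18.1 and 15.0. The cytokine gene Lif was at 0.906 and 0.912, and the telomerase gene Tert at 0.984 and 0.701 (absent in mdx). The core pluripotency factors Nanog (0.105 and 0.127) and Sox2 (0.606 and 0.425) were absent on both. Among regulators of chromatin and transcription, 10 of 15 were counted and 0 were past 2-fold. Snai2, a factor of mesenchymal state, was at 30.3 and 30.4, and Bmi1, a Polycomb protein of self-renewing cells, at 2.58 and 3.58.

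Of the 17 hematopoietic and endothelial genes 5 were counted, with Cxcl12 higher and Mme lower, against 4 higher and 5 lower of all 140 genes. Thy1, a surface protein of T cells and fibroblasts, was present only on the Mst KO array (0.885 and 0.529), and Cd8a, a T cell co-receptor, was at 2.85 and 1.82 on arrays where Ptprc, the pan-leukocyte CD45, was absent at 0.505 and 0.440. The 6 hematopoietic markers summed to 4.62 in Mst KO and 3.89 in mdx, and their part in the values of Cxcl12 and Mme was not tested. The hedgehog ligands Shh, Ihh and Dhh were absent on both arrays. In the adipose, liver and epithelial list, 2 of 9 were counted, Pparg, the regulator of fat cell formation, at 1.75 and 1.49 and Ppard at 0.695 (absent) and 1.08. Of 9 neural genes 5 were counted and 0 were past 2-fold, with Sox3 at 49.9 and 39.4. The 2 counted transporter and dehydrogenase genes were Abcg2, an efflux pump of side-population stem cells, at 4.23 and 4.54, and Aldh2 at 0.757 and 0.962. A further 25 counted genes belonged to no list, and Hspa9 was the only gene of these past 2-fold, against 5 lower of all 140 genes. They included Tfrc, the receptor for transferrin (2.04 and 1.33), and the cytoskeletal regulators Rhoa (27.7 and 21.1) and Cdc42 (32.0 and 34.3).

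**Figure D3:**
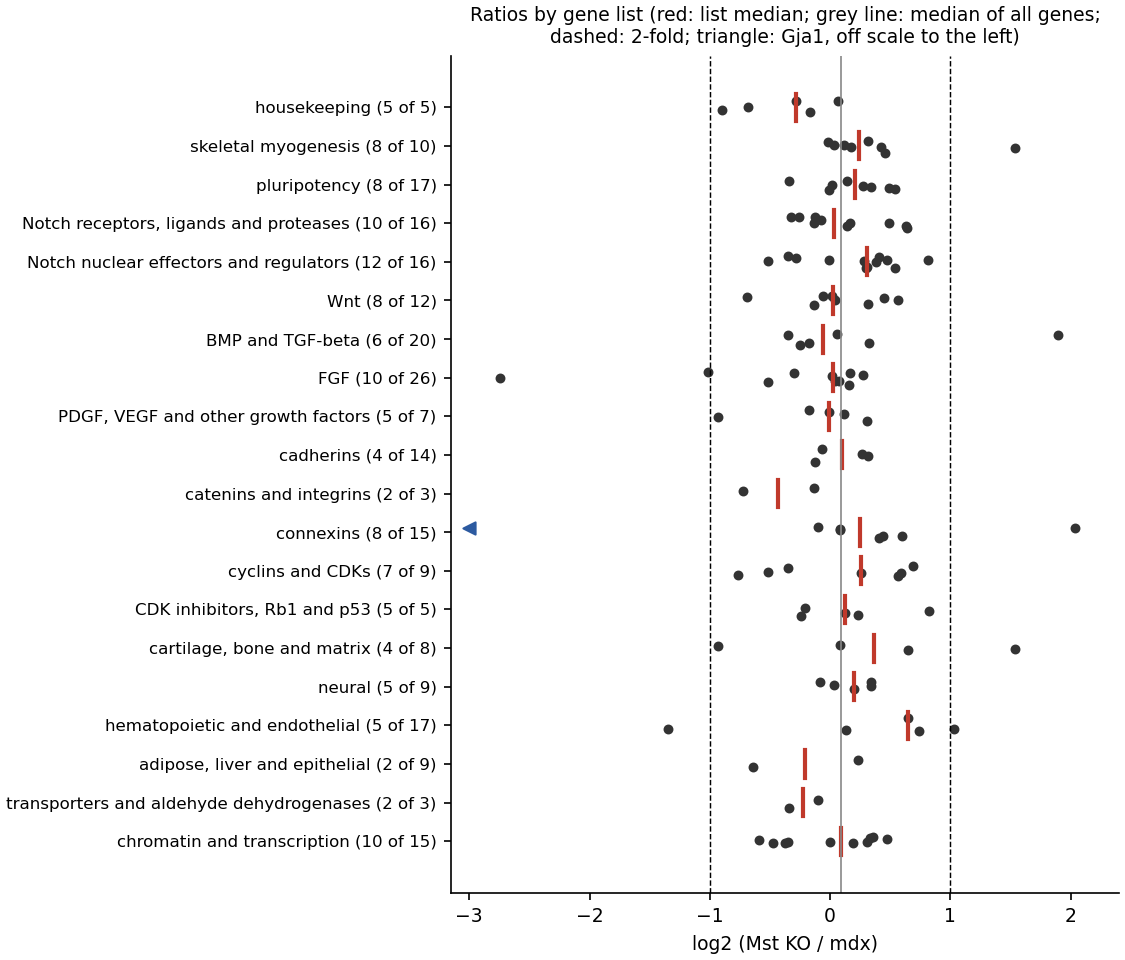
Log2 ratio of Mst KO over mdx (x axis) for the counted genes of each list, with the number counted and the number on the array in parentheses. Points are genes, red ticks are list medians, the grey line is the median of all genes (0.09), the dashed lines are 2-fold, and the triangle is Gja1 at -6.64; every list median lies between the 2-fold lines.

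Of the 21 genes present on 1 array only, 14 were called in Mst KO and 7 in mdx MDSCs. The 14 included Bmp2, Bmp4, Ccna2, Fgf5, Fgf20, Map3k7, Myst4, Neurog2, Notch1, Notch3, Numb, Tert and Thy1, and the 7 were Bmp1, Fgf16, Fgf17, Gja1, Ppard, Rac3 and Snw1. Apart from Gja1 on the mdx array and Bmp4 on the Mst KO array, these genes were present at 1.48 (Numb) or less. Of the 128 genes absent on both arrays, 79 (61.7%) had the higher normalized value on the mdx array, with medians of 0.272 in Mst KO and 0.361 in mdx. In raw intensity 53 were brighter on the mdx array, with medians of 288 and 290. The array on which more of these dim spots were brighter therefore turned between raw and normalized values. These differ in background subtraction and in scaling, and the part of each was not tested.

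The housekeeping genes, which bear on the scaling, had in 4 of 5 cases the higher deposited value in mdx. The glycolytic enzyme gene Gapdh averaged 97.7 ± 0.552 (SD, n = 3 spots) in Mst KO against 93.2 ± 1.99 (SD, n = 3 spots) in mdx. The corresponding means of Ppia, a cyclophilin gene, were 75.3 ± 3.75 (SD, n = 3 spots) in Mst KO against 91.5 ± 1.49 (SD, n = 3 spots) in mdx. B2m, a subunit of class I antigens, averaged 22.5 ± 1.46 (SD, n = 3 spots) in Mst KO against 36.1 ± 1.67 (SD, n = 3 spots) in mdx. For each of these 3 genes, the spots of the 2 arrays did not overlap. The chaperone gene Hsp90ab1 was at 26.8 and 30.1 and the ribosomal gene Rps27a at 14.6 and 27.1, with 1 spot for each. Among 9 other settings, the sign of the Gapdh ratio turned only with a local background (log2 ratio -0.13). With scaling to Gapdh alone its log2 ratio is 0 by construction. The sign turned under 2 of the 9 for Ppia and under 4 for Hsp90ab1, and under none of them for B2m and Rps27a. These 5 genes had a median log2 ratio of -0.28, or -0.37 relative to all genes, so that scaling to these genes would move every ratio toward Mst KO. With it the median of all 140 genes was 0.48, 14 genes were at least 2-fold higher in Mst KO (among them Adam17, Cdkn2b, Notch3, Numb and Thy1) and 3 lower (Gja1, Fgf17 and Hspa9).

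**Figure D4:**
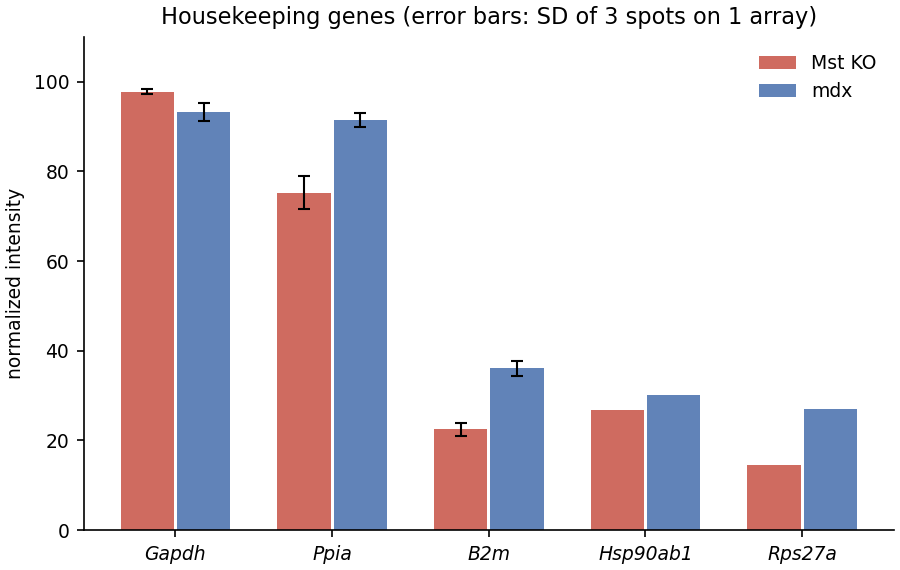
Normalized intensity (y axis, from 0) of the 5 housekeeping genes on the Mst KO and mdx arrays; bars are gene means, and error bars, for the 3 genes with 3 spots, are the SD between spots of 1 array. As deposited, only Gapdh is higher on the Mst KO array, and among 9 other settings its order turns only with a local background.

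These 8 genes were followed through 9 other settings (scalings, backgrounds, a floor for absent values and the rounded table), and none of the 8 changed sign. Gja1, Spp1 (log2 ratio 1.40 to 1.93) and Bmp4 (1.44 to 2.29) stayed past 2-fold in all of them. Hspa9 did so in 8, Mme, Cxcl12 and Fgf17 in 6 and Fgf16 in 3. The value nearest to 0 was -0.98 for Hspa9, -0.60 for Mme and 0.89 for Cxcl12, and for the dim genes it was -0.29 for Fgf17 and -0.29 for Fgf16. Among the brighter genes just inside 2-fold, Col1a1 (-1.13), Pdgfra (-1.14) and Rps27a (-1.12) passed it with a local background for each spot, and not with the others.

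**Figure D5:**
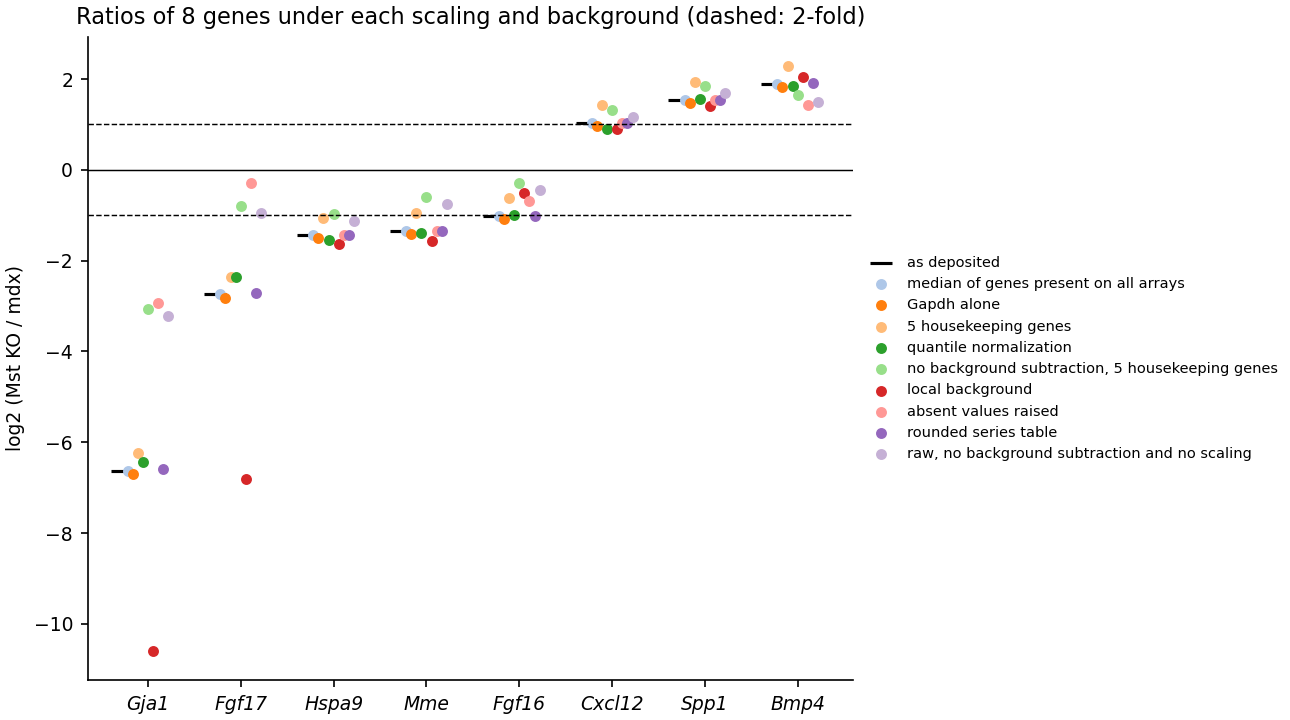
Log2 ratio of Mst KO over mdx (y axis) for the 8 genes as deposited (black bars) and with 9 other settings (colored points), with dashed lines at 2-fold. Spp1, Bmp4 and Gja1 stay outside the dashed lines throughout, and Fgf16 is outside them with 3 of the 9.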

How the data were processed

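RNA of Mst KO and mdx MDSCs was labeled with biotin (cRNA in the sample records, cDNA in the paper) and hybridized to membrane arrays of stem cell genes. The deposited values are spot intensities that the authors made with the array maker's software, as raw intensity and as normalized intensity. Per the file headers, the background was the lowest spot, and 1.5 was the threshold for present calls. The paper names housekeeping genes for normalization, whereas the deposited values were rebuilt as the spot minus the lowest spot over the mean of the middle 144 spots. The 3 deposited columns of ratios were not used, and 0 columns of values were left unassigned.

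Spots of a gene were averaged, genes called present on at least 1 array were counted, and a 2-fold threshold was used. The members, lists and rules were chosen with earlier results of these data known. Named genes were those past 2-fold, the 10 largest and 10 smallest ratios, the 10 brightest of each array, genes present on 1 array only, housekeeping genes and list members. Tfrc and Rhob, which lie outside this rule, were chosen after their values were seen. Alternatives were scaling to Gapdh, to 5 housekeeping genes or to the median of genes present on all arrays, quantile normalization, 3 other backgrounds or floors, 2 other filters, 2 other thresholds and the rounded series table. Raw spots without scaling were added after seeing the data. Some genes are counted but not reported here by name. The counting was tested on simulated data. RefSeq accessions matched 257 genes, of which 14 had a newer symbol. The software was matplotlib 3.10.9, scipy 1.17.1, pandas 2.3.3 and numpy 2.4.6 under Python 3.11.15.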

Additional observations from a re-analysis of the deposited data

How the results depend on the processing

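With 1 array for each cell type, the number of arrays limits the precision and no spread between cultures exists. As deposited, 4 genes were at least 2-fold higher and 5 lower in Mst KO, with 93.6% within 2-fold and a median log2 ratio of 0.09. Scaling to 5 housekeeping genes gave 14 higher and 3 lower, 87.9% within and a median of 0.48, and the same scaling without background subtraction gave 5 higher, 1 lower and a median of 0.44. Local background gave 8 lower and a median of -0.019, scaling to Gapdh alone a median of 0.018, and raw spots without scaling, chosen after seeing the data, 2 lower and a median of 0.29. Without a filter, 9 of 266 genes were higher and 36 lower (83.1% within, median -0.019), since pairs of absent genes entered. With the filter set to genes present on both, 2 were higher and 2 lower, and 3 were lower with absent values raised. A 1.5-fold threshold gave 16 higher and 16 lower (77.1% within), and a 3-fold threshold 2 and 2 (97.1% within). Except for the filters and thresholds, the cause was not tested. The other 26 counts, shares and medians stayed close to the deposited values. Of 607 list medians and single ratios 386 moved by more than the spread from spots, and no gene past 2-fold changed sign. Scaling to Gapdh alone shifted every log2 ratio by 0.06925, just above that spread (0.06924). Scaling to 5 housekeeping genes also shifted all of them by the same amount. Moves under these scalings therefore do not bear on single genes or lists. Relative to all genes, list medians changed sign for Wnt, cadherins, cyclins, cartilage, neural, adipose and chromatin genes under 1 to 4 of 11 alternatives. No paired analysis was possible because each cell type has 1 array.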

Other observations

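Of the 128 genes absent in both Mst KO and mdx MDSCs, 9 were called present on the WT or the Oct_4 transgenic array, 7 on WT and 5 on Oct_4 transgenic, with 3 on both, and 119 were absent on all 4. Cdh13, which encodes a cadherin without a transmembrane part, was at 3.12 in WT and 1.09 in Oct_4 transgenic MDSCs, and at 0.668 in Mst KO and 0.622 in mdx. The aldehyde dehydrogenase gene Aldh1a1, a marker of progenitor cells, was present in Oct_4 transgenic MDSCs only, at 1.98. Rhob, a small GTPase, was present in both, at 1.53 in Oct_4 transgenic cells, and Gjb5, a connexin gene, was at 1.15 in WT and 0.905 in Oct_4 transgenic cells. Bmper (1.04), Fgf3 (0.710), Frat1 (1.33) and Nes (0.699) were present on the WT array alone, and Tubb3 (1.51) on the Oct_4 transgenic array alone. The 12S rRNA control spot was at 20.2 in Mst KO and 30.4 in mdx, which is the same direction as for 4 of the 5 housekeeping genes.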
